A study of Homo sapiens with 6 samples.

Results

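Integrin subunits and laminin chains were examined in tumors of PC-3, a human prostate cancer cell line that grows without androgen. Every gene entry whose symbol names an integrin alpha subunit, an integrin beta subunit or a laminin chain was taken, which gave 38 genes of the 24000 entries in the table: 18 alpha subunits, 8 beta subunits and 12 laminin chains. RNA came from 3 tumors of mice given vehicle and 3 tumors of mice given WCE, a standardized extract of the herb Wedelia chinensis that contains luteolin, apigenin and wedelolactone. All 6 hosts were nude mice treated for 10 weeks, per the labels, which give no dose for the sequenced tumors. The study's own text gives a shorter treatment and more than 1 dose, so the length and dose for these tumors are uncertain. Per the study's methods the cells carried a luciferase reporter and grew in the prostate of athymic males, so all tumors descend from 1 cell line and the hosts lacked mature T cells but supplied mouse vessels, fibroblasts and myeloid cells. Levels are in FPKM, a count of sequenced fragments divided by transcript length and by library size, so genes of different length can be compared within a tumor.

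Integrins are cell surface receptors made of 1 alpha and 1 beta chain, and the alpha chain largely sets which matrix protein is bound. Laminins are trimers of 1 alpha, 1 beta and 1 gamma chain that form the sheet of the basement membrane. LAMA3 and LAMB3 are chains of laminin-332, which epithelial cells anchor to through integrins alpha3beta1 and alpha6beta4, whereas LAMA5 with LAMB1 or LAMB2 and LAMC1 forms the laminin-511 and laminin-521 of most epithelial and vascular basement membranes. In the normal prostate, basal cells lie on such a membrane, and loss of hemidesmosome parts such as ITGB4 is a known feature of prostate carcinoma.

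The libraries of vehicle replicate 3 and WCE replicate 1 stood apart by being nearly identical although they carry different treatments. Over the 26 integrin and laminin genes with a mean of at least 0.5 FPKM, their median absolute difference on the log2(FPKM + 1) scale was 0.030, and among the remaining 14 pairs it ran from 0.143 to 0.506. The largest difference of any of the 26 genes between these libraries was 0.24, in ITGA2B. All 15805 entries above 0 in WCE replicate 1 were also above 0 in vehicle replicate 3. By contrast, 546 and 372 of them were at 0 in vehicle replicates 1 and 2, and 376 and 329 in WCE replicates 2 and 3. The depth of WCE replicate 1, read from the spacing of low values, was 25.0% of that of vehicle replicate 3, and the other tumors lay between 64.8% and 85.2%. Whether the nearly identical libraries come from 2 tumors or from 1 tumor entered under both labels was not tested. If they come from 1 tumor, the groups share it, and the means, SDs and p-values with n = 3 do not rest on 3 separate tumors each. Treatments are known from the labels alone, so all tumors were kept as labelled. The counts at an unadjusted p under 0.05, and the differences of the genes described in full, are also given for the other 4 tumors. These are vehicle replicates 1 and 2 against WCE replicates 2 and 3.

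**Figure D1:**
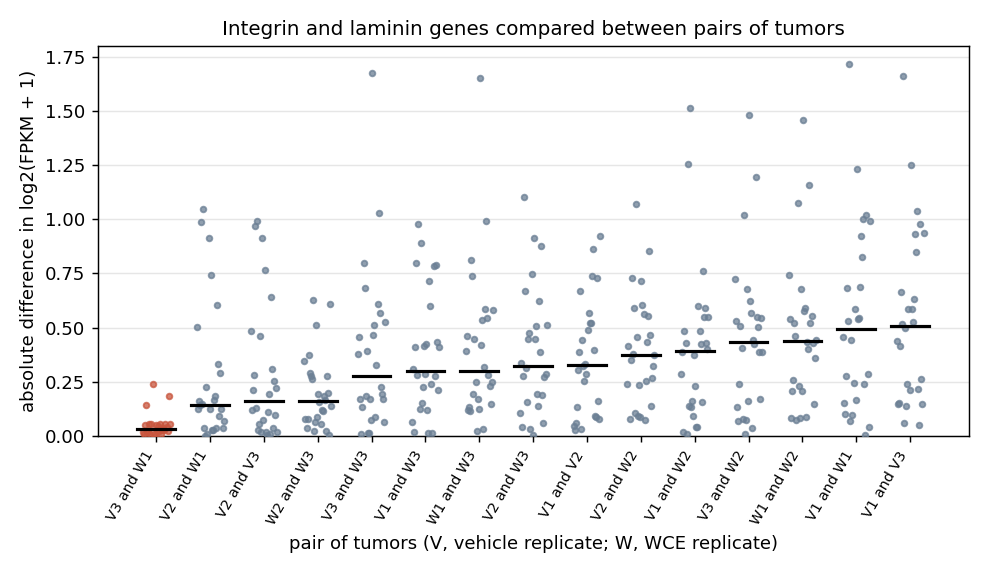
Absolute difference in log2(FPKM + 1) of each of 26 integrin and laminin genes (points) between every pair of the 6 tumors on the x axis, with the median as a black line; pairs are in order of their median. The pair of vehicle replicate 3 and WCE replicate 1 (red) has a median of 0.030, and the next lowest pair has 0.143.

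The tumors carried the transcripts of epithelial PC-3 cells. KRT8, KRT18 and KRT19, keratins of simple epithelium, lay between 192 and 652 FPKM, and KLK3, an androgen receptor target that PC-3 lacks, was listed at 0 in all 6 tumors. Of 7 leukocyte markers, 6 stayed under 1 FPKM in all tumors and TYROBP was listed at 0. CD68, a lysosomal protein also made outside macrophages, was the exception at 25.3 to 43.9 FPKM. The sum of the 7 ranged from 25.7 to 41.3 FPKM in vehicle tumors and from 40.2 to 44.6 FPKM in WCE tumors. Sums were 3.93 to 5.17 and 4.80 to 11.5 FPKM for 6 endothelial markers, 44.0 to 58.8 and 14.0 to 58.4 FPKM for 7 fibroblast and mural markers, and 4.77 to 9.98 and 3.62 to 11.3 FPKM for 4 platelet markers, with vehicle given first. CDH5, TEK, VWF, DCN, PDGFRB and COL1A2, which define vessels and fibroblasts, were under 1 FPKM in all tumors, and GP9 was listed at 0. Other markers of these lists were higher. ENG and PECAM1 of the endothelial list ranged from 1.55 to 3.92 and from 0.860 to 2.95 FPKM. Of the fibroblast and mural list, COL1A1 ranged from 10.4 to 45.7 FPKM, COL3A1 from 1.81 to 11.7, ACTA2 from 1.08 to 2.47 and LUM from 0.338 to 3.15 FPKM. How reads from mouse cells were handled is not given in the sources used here. In such whole-tumor RNA, fewer cells of a type and less RNA per cell cannot be told apart.

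Integrin transcripts were dominated by a few subunits in all 6 tumors. ITGB1, the common partner of most alpha chains, made up 75.1% to 83.9% of the summed FPKM of the 8 beta subunits, and with ITGB4, the hemidesmosome subunit that pairs only with ITGA6, it made up 94.1% to 95.9%. ITGA3, the alpha chain of a laminin receptor, made up 59.4% to 67.8% of the summed alpha subunits. The alpha sum was 0.336 to 0.480 of the beta sum. In the plot of levels by tumor, ITGB1 and ITGA3 lie above every other member of their families in each tumor.

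**Figure D2:**
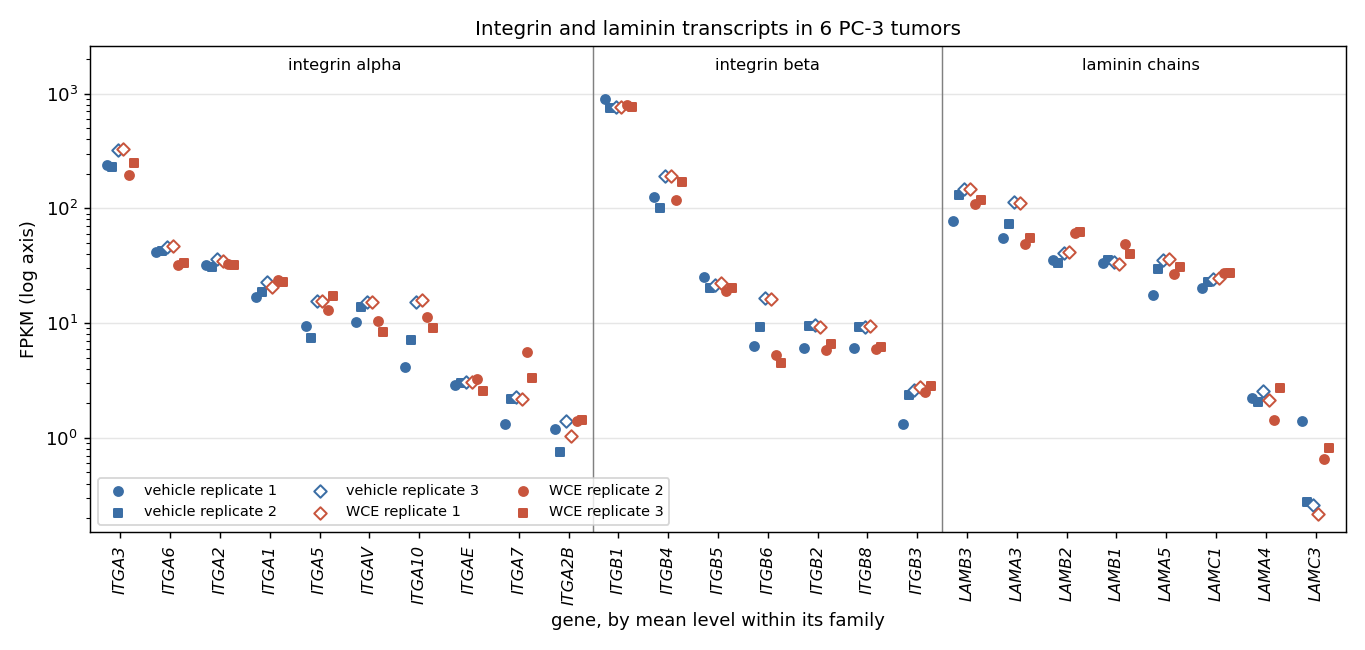
FPKM (log axis) of 25 integrin and laminin genes with a mean of at least 0.5 FPKM in each tumor; blue symbols are vehicle, red symbols WCE, and open diamonds are the nearly identical libraries. ITGB1 sits between 752 and 898 FPKM, and the open diamonds lie on each other for nearly every gene.

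The 12 remaining genes were under a mean of 0.5 FPKM and were not tested. They are ITGA4, ITGA8, ITGA9, ITGA11, ITGAD, ITGAL, ITGAM, ITGAX, ITGB7, LAMA1, LAMA2 and LAMB4, and the highest value of any of them in any tumor was 0.309 FPKM, for ITGA4. ITGAL, ITGAM, ITGAX and ITGAD encode alpha chains of the leukocyte integrins that pair with ITGB2. ITGAD was listed at 0 in all 6 tumors, ITGAL was above 0 only in vehicle replicate 1, and ITGAM and ITGAX reached at most 0.120 and 0.0361 FPKM. ITGB2 itself was listed at 6.04, 9.42 and 9.56 FPKM in vehicle tumors 1 to 3 and at 9.23, 5.85 and 6.64 FPKM in WCE tumors 1 to 3, with a difference on the log2(FPKM + 1) scale of -0.18 (SE 0.21) over 6 tumors and -0.24 (SE 0.21) over 4. Its listed level was above that of the alpha chains it is known to pair with, but its locus overlaps that of LOC100505746, so reads in the overlap cannot be assigned with certainty.

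The comparison of WCE with vehicle asks which of these adhesion genes differ after treatment. It was made with limma on log2(FPKM + 1) over all 13287 entries with a mean of at least 0.5 FPKM, and adjusted p-values are Benjamini-Hochberg values over all of them. None of the 26 genes passed an adjusted p of 0.05, and the lowest adjusted p among them was 0.623; over all entries, 0.00753% passed. At an unadjusted p under 0.05 in limma, 1 of 26 genes was found, 3.85%, against 7.10% of all entries tested. In 2 of 26 genes, LAMB2 and LAMC1, every WCE tumor was above every vehicle tumor, and no gene had all WCE tumors below; groups did not overlap in 12.8% of all entries. The median difference of the 26 genes was -4.0e-05 on the log2(FPKM + 1) scale, with 13 genes higher and 13 lower on average in WCE, and the median over all entries was -0.0063. With 3 tumors a group an exact permutation test cannot go below p = 0.1.

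Without the nearly identical libraries, limma gave 9 of 26 genes an unadjusted p under 0.05, 34.6%, against 18.4% of all entries. Higher in WCE were LAMB2, ITGA5, ITGA7, ITGA1, LAMC1, ITGA10 and LAMB1, and lower were ITGA6 and ITGB6. The ITGA1 entry is joined with PELO, so its difference cannot be assigned to ITGA1 alone. None passed adjustment, with a lowest adjusted p of 0.171. Groups of 2 did not overlap in 12 of the 26 genes and in 53.5% of all entries. As the plot of fitted differences shows, 24 of the 26 genes kept their sign and had a larger absolute difference without these libraries. LAMA4 and LAMC3 kept their sign with a smaller one. The libraries left out are nearly equal and lie in opposite groups, so their removal by itself widens most differences between group means. The count of 24 therefore cannot show a stronger effect of treatment, and the same share over all entries is not given.

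**Figure D3:**
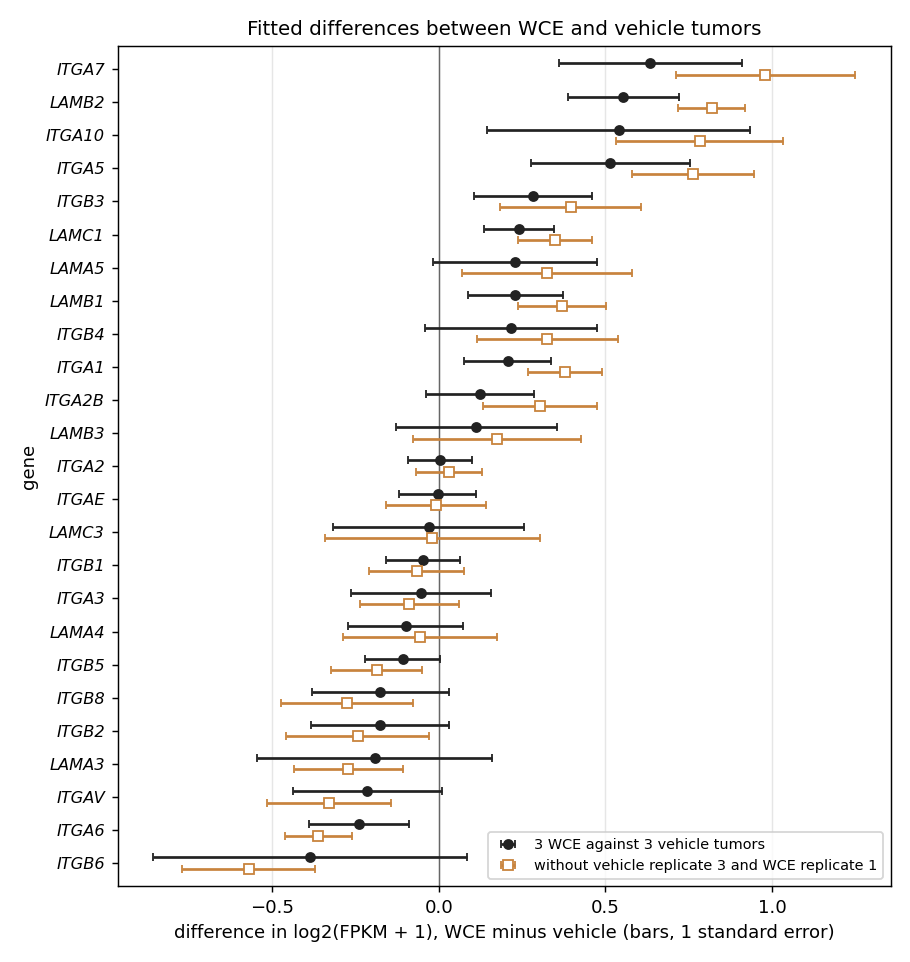
Fitted difference in log2(FPKM + 1), WCE minus vehicle, with 1 standard error, for 25 genes in 6 tumors (black) and in 4 tumors (orange, without vehicle replicate 3 and WCE replicate 1). LAMB2 stands at 0.55 with 6 tumors and 0.82 with 4, and ITGB1, ITGA2 and ITGAE lie within 0.1 of 0 in both.

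LAMB2, the beta2 chain of laminin-521, was the 1 gene with an unadjusted p under 0.05 in all 6 tumors. Its entry lies on chromosome 3 from 49158547 to 49170599 in the hg19 build. LAMB2 was 35.4, 33.1 and 41.2 FPKM in vehicle tumors 1 to 3 and 41.9, 60.7 and 61.6 FPKM in WCE tumors 1 to 3. The 3 WCE values lay above the 3 vehicle values, but WCE replicate 1 exceeded vehicle replicate 3 by less than 1 FPKM. The means were 36.6 ± 4.18 (SD, n = 3) and 54.8 ± 11.1 FPKM (SD, n = 3), a ratio of 1.50. The difference was 0.55 (SE 0.17) on the log2(FPKM + 1) scale with an unadjusted p of 0.0112 and an adjusted p of 0.623 in limma, and the exact permutation p was 0.1. In the other 4 tumors the difference was 0.82 (SE 0.10), with an unadjusted p of 0.00038 in limma. LAMB2P1, a pseudogene close to LAMB2, was listed at 0.275 to 0.902 FPKM.

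LAMC1, the gamma1 chain shared by most laminins outside the epithelial laminin-332, was the other gene without overlap. It is listed at chromosome 1, 182992595 to 183114727 in hg19. LAMC1 was 20.2, 22.7 and 24.4 FPKM in vehicle tumors 1 to 3 and 24.8, 27.6 and 27.6 FPKM in WCE tumors 1 to 3. The highest vehicle value and the lowest WCE value were those of the nearly identical libraries, 0.417 FPKM apart. The means were 22.4 ± 2.11 and 26.6 ± 1.60 FPKM (SD, n = 3 each), a ratio of 1.19. The difference of 0.24 (SE 0.10) had an unadjusted p of 0.0524 in limma and an exact permutation p of 0.1, and it was 0.35 (SE 0.11) in the other 4 tumors with an unadjusted p of 0.0240 in limma.

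The sequence before the start of these genes is given for the pair without overlap, LAMB2 and LAMC1, for LAMB1, which stands beside LAMB2 as the other beta chain of the laminin-511 and laminin-521 set, and for LAMB3 of laminin-332 as a contrast. The stretches are from RefSeq on GRCh38.p14, hold no base of an annotated exon, and read 5′ to 3′ on the gene's strand. Capitals mark a GC box (GGGCGG, a site of Sp1-type factors) or an AP-1 site (TGANTCA, a site of Fos and Jun), searched on both strands.
LAMB2, chr3:49133119-49133300, minus strand: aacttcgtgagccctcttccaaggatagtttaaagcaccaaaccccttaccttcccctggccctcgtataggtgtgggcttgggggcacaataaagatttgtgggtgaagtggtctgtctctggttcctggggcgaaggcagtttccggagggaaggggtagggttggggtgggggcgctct
LAMC1, chr1:183023170-183023419, plus strand: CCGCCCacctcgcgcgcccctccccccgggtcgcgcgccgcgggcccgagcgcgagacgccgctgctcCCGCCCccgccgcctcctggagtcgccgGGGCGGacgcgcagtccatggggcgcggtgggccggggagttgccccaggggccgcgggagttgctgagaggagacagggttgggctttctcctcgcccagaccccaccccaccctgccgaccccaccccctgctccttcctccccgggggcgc
LAMB1, chr7:108003256-108003411, minus strand: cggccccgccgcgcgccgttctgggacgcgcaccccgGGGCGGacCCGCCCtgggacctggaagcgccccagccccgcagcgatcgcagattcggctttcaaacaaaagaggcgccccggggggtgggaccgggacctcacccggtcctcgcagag
LAMB3, chr1:209651375-209651624, minus strand: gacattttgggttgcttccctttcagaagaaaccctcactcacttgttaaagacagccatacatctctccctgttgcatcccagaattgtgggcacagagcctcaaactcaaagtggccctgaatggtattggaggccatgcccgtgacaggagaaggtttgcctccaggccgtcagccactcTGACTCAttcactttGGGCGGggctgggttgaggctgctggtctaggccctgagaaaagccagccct
The stretch printed for LAMB2 holds none of the motifs; the 1 GC box of its 250-base window lies outside the printed stretch. LAMC1 holds 3 GC boxes in the printed stretch and LAMB1 holds 2. The LAMB3 stretch holds 1 AP-1 site and 1 GC box. It precedes 1 of the 3 RefSeq starts of LAMB3 and lies downstream of the other 2, inside the gene, and the windows of those 2 starts hold kappaB matches and no AP-1 site.

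Over the 250 bases before each RefSeq start, 26 of the 38 genes had a window, 33 windows in all. An AP-1 site was found in 2 of the 33 windows, those of LAMA3 and 1 of LAMB3, 6.06%, against 6.57% of all 35116 windows. Both genes encode laminin-332 chains, but the share is near that of all windows and the other 2 LAMB3 windows hold no AP-1 site. The site is therefore not read as a trait of laminin-332 genes. A GC box was found in 17 windows, 51.5%, against 42.6% of all windows. It was found for LAMA5, LAMB1, LAMB2 and LAMC1 among others, and for LAMA3 and LAMB3 as well. The kappaB consensus, the site of the NFκB factors that the study examined, was found in 6 windows of 5 genes, ITGA1, ITGA5, ITGA10, ITGA11 and LAMB3, 18.2% of the 33, against 5.21% of all windows, and 2 of the 6 are overlapping LAMB3 windows. These are matches of letters and not measured sites.

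The other chains of the laminin-511 and laminin-521 set gave mixed values. LAMB1, the beta1 chain, was 33.1, 35.1 and 34.2 FPKM in vehicle tumors 1 to 3 and 33.0, 48.9 and 40.2 FPKM in WCE tumors 1 to 3. WCE replicate 1 was the lowest of the 6 and WCE replicates 2 and 3 were the highest, so the groups overlapped through that library. The difference was 0.23 (SE 0.14) over 6 tumors and 0.37 (SE 0.13) over 4. LAMA5, the alpha5 chain, was 17.5, 29.6 and 35.4 FPKM in vehicle tumors 1 to 3 and 36.4, 26.8 and 30.8 FPKM in WCE tumors 1 to 3. Its lowest value was in vehicle replicate 1 and its 2 highest were those of the nearly identical libraries. The difference was 0.23 (SE 0.25) over 6 tumors, within its error, and 0.32 (SE 0.25) over 4. The ratio of LAMB2 to LAMB1 was 1.07, 0.943 and 1.20 in vehicle tumors 1 to 3 and 1.27, 1.24 and 1.53 in WCE tumors 1 to 3, so the 2 groups did not overlap in this ratio. It was 1 of 12 ratios and shares computed, of which the other 11 overlapped between the groups, it was chosen after earlier results were known, and it was not tested.

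**Figure D4:**
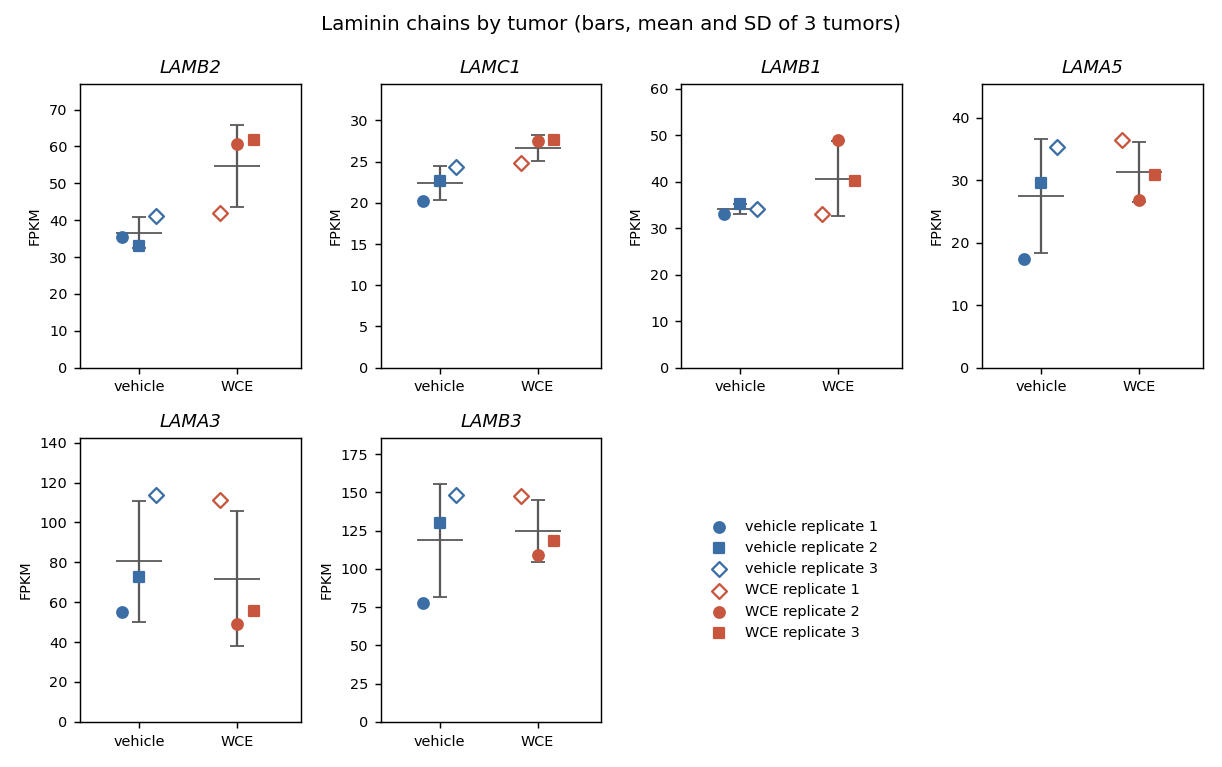
FPKM of 6 laminin chains in vehicle and WCE tumors, with 1 panel a gene and the mean and SD of 3 tumors as bars. LAMB2 and LAMC1 show every WCE tumor above every vehicle tumor, and in LAMA3 and LAMB3 the open diamonds, the nearly identical libraries, are the highest of both groups.

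LAMA3 and LAMB3, chains of laminin-332, were abundant, and with 6 tumors their differences were smaller than their errors. LAMA3 was 55.0, 72.7 and 114 FPKM in vehicle tumors 1 to 3 and 111, 49.2 and 55.4 FPKM in WCE tumors 1 to 3, means of 80.5 ± 30.3 and 71.9 ± 34.1 (SD, n = 3 each). Its difference was -0.19 (SE 0.35, unadjusted p = 0.600 in limma, exact permutation p = 0.6), and -0.27 (SE 0.16, unadjusted p = 0.158 in limma) over 4 tumors. LAMB3 was 77.4, 130 and 148 FPKM in vehicle tumors 1 to 3 and 148, 109 and 118 FPKM in WCE tumors 1 to 3, means of 119 ± 36.8 and 125 ± 20.2. The LAMB3 difference was 0.11 (SE 0.24, unadjusted p = 0.653 in limma, exact permutation p = 0.9), and 0.17 (SE 0.25) over 4 tumors. The entry of LAMB3 is joined with the microRNA gene MIR4260 in the table.

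Vehicle replicate 1 was the lowest of the 6 tumors in LAMB3, and the nearly identical libraries were the highest 2 in LAMA3 and LAMB3. LAMA4, a chain of vessel and muscle laminins, was 1.44 to 2.72 FPKM over the 6 tumors. LAMC3 ranged from 0.216 to 1.42 FPKM, with its highest value in vehicle replicate 1 and its lowest in WCE replicate 1.

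Among the laminin-binding alpha chains, ITGA3 was 239, 231 and 324 FPKM in vehicle tumors 1 to 3 and 328, 196 and 249 FPKM in WCE tumors 1 to 3. It lies on chromosome 17 from 48133340 to 48167849 in hg19. The highest values were again those of vehicle replicate 3 and WCE replicate 1. The means of 265 ± 51.4 and 257 ± 66.4 FPKM (SD, n = 3 each) differed by -0.05 (SE 0.21, unadjusted p = 0.805 in limma, exact permutation p = 1), and over 4 tumors the difference was -0.09 (SE 0.15). ITGA6, the partner of ITGB4 in hemidesmosomes, was 41.9, 42.7 and 46.4 FPKM in vehicle tumors 1 to 3 and 46.7, 31.8 and 33.6 FPKM in WCE tumors 1 to 3. WCE replicates 2 and 3 were the lowest of the 6 tumors and WCE replicate 1 the highest. The ITGA6 difference was -0.24 (SE 0.15, unadjusted p = 0.153 in limma) over 6 tumors and -0.36 (SE 0.10, unadjusted p = 0.0143 in limma) over 4. ITGA7, a laminin receptor best known from muscle, was 1.33, 2.16 and 2.28 FPKM in vehicle tumors 1 to 3 and 2.16, 5.66 and 3.31 FPKM in WCE tumors 1 to 3. The difference in ITGA7 was 0.64 (SE 0.27, unadjusted p = 0.0507 in limma), the largest among the 26 genes, and 0.98 (SE 0.27, unadjusted p = 0.0141 in limma) over 4 tumors. The ITGA7 locus overlaps that of METTL7B, so reads in the overlap cannot be assigned with certainty.

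ITGB4 was 127, 101 and 191 FPKM in vehicle tumors 1 to 3 and 191, 119 and 170 FPKM in WCE tumors 1 to 3. The groups overlapped, with a difference of 0.22 (SE 0.26) over 6 tumors and 0.33 (SE 0.21) over 4. Its ratio to ITGA6 was 3.03, 2.36 and 4.11 in vehicle tumors 1 to 3 and 4.09, 3.73 and 5.04 in WCE tumors 1 to 3. Of 8 genes for hemidesmosome parts and the tetraspanins that travel with laminin-binding integrins, 4 were higher and 4 lower on average in WCE. With 6 tumors 0 of the 8 had an unadjusted p under 0.05 in limma, against 7.10% of all entries. CD151, the tetraspanin bound to ITGA3 and ITGA6, was 356 to 486 FPKM. The 5 receptors of laminin that are not integrins, DAG1, BCAM, SDC1, SDC4 and RPSA, likewise included 0 genes with such a p, with differences of -0.02 to 0.20. Lists this short cannot tell a count of 0 from the share over all entries. Over the other 4 tumors, 1 of the 8 genes and 0 of the 5 receptors had an unadjusted p under 0.05 in limma, against 18.4% of all entries. The 1 gene was PLEC, higher in WCE by 0.41 (SE 0.12, unadjusted p = 0.0191 in limma).

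Of the collagen-binding alpha chains, ITGA2 and ITGA10 were detected, and ITGA11 was above 0 in 1 tumor only. ITGA1 was listed only in an entry joined with another gene. ITGA2, the highest of them, was 32.3, 30.9 and 36.0 FPKM in vehicle tumors 1 to 3 and 34.7, 32.7 and 31.9 FPKM in WCE tumors 1 to 3. All 6 values lay within a ratio of 1.16, the narrowest range of the 26 genes, and the means were 33.1 ± 2.62 and 33.1 ± 1.46 FPKM (SD, n = 3 each). The difference was 0.004 (SE 0.10, unadjusted p = 0.970 in limma, exact permutation p = 1), and 0.03 (SE 0.10) over 4 tumors. ITGA10, a chain best known from cartilage, was 4.14, 7.17 and 15.3 FPKM in vehicle tumors 1 to 3 and 15.9, 11.3 and 9.13 FPKM in WCE tumors 1 to 3. Its values spread 3.84-fold over the 6 tumors, and the nearly identical libraries were the highest of both groups. Over 6 tumors the difference was 0.54 (SE 0.39), and over 4 tumors it was 0.78 (SE 0.25, unadjusted p = 0.0249 in limma). The entry of ITGA1 is joined with PELO, a gene inside it. It was 16.8 to 22.8 FPKM in vehicle tumors and 20.6 to 23.9 FPKM in WCE tumors. The difference was 0.21 (SE 0.13) over 6 tumors and 0.38 (SE 0.11, unadjusted p = 0.0179 in limma) over 4. Neither the level nor the difference of the joined entry can be assigned to ITGA1 alone.

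ITGA5 and ITGAV, the chains that bind the RGD motif of fibronectin and vitronectin, lay on opposite sides of 0. ITGA5 was 9.40, 7.42 and 15.5 FPKM in vehicle tumors 1 to 3 and 15.7, 12.98 and 17.1 FPKM in WCE tumors 1 to 3. Vehicle replicate 3 lay among the WCE tumors, and vehicle replicates 1 and 2 lay below all of them. The means were 10.8 ± 4.21 and 15.2 ± 2.09 FPKM (SD, n = 3 each), a ratio of 1.42. The ITGA5 difference was 0.52 (SE 0.24, unadjusted p = 0.0649 in limma, exact permutation p = 0.2), and 0.76 (SE 0.18, unadjusted p = 0.0081 in limma) over 4 tumors. ITGAV was 10.3, 13.8 and 15.2 FPKM in vehicle tumors 1 to 3 and 15.4, 10.4 and 8.31 FPKM in WCE tumors 1 to 3, with a difference of -0.21 (SE 0.22) over 6 tumors and -0.33 (SE 0.18) over 4. ITGA2B, the platelet alpha chain, was 0.753 to 1.44 FPKM.

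Among the beta chains, 2 of 7 tested had a higher mean on the log scale in WCE, ITGB3 and ITGB4, and 5 had a lower one. ITGB1, listed at chromosome 10 from 33189246 to 33247293 in hg19, was 898, 752 and 762 FPKM in vehicle tumors 1 to 3 and 757, 802 and 768 FPKM in WCE tumors 1 to 3. Apart from vehicle replicate 1, which was the highest, the tumors lay between 752 and 802 FPKM. The means were 804 ± 81.5 and 776 ± 23.3 FPKM (SD, n = 3 each), with a difference of -0.05 (SE 0.11, unadjusted p = 0.686 in limma, exact permutation p = 0.9), and of -0.07 (SE 0.14) over 4 tumors. ITGB6, the epithelial partner of ITGAV, was 6.32, 9.26 and 16.4 FPKM in vehicle tumors 1 to 3 and 16.2, 5.24 and 4.45 FPKM in WCE tumors 1 to 3. WCE replicates 2 and 3 were the lowest of the 6 and the nearly identical libraries the highest. The ITGB6 difference was -0.39 (SE 0.47), the lowest of the 26 genes, and -0.57 (SE 0.20, unadjusted p = 0.0341 in limma) over 4 tumors. ITGB5 and ITGB8, also partners of ITGAV, ranged from 19.1 to 25.0 and from 5.91 to 9.40 FPKM, and ITGB3 from 1.33 to 2.83 FPKM. ITGAE, the alpha chain of a lymphocyte integrin that binds E-cadherin on epithelium, was 2.90, 2.99 and 3.07 FPKM in vehicle tumors 1 to 3 and 3.09, 3.29 and 2.58 FPKM in WCE tumors 1 to 3. The ITGAE means were both 2.99 FPKM, ± 0.0815 and ± 0.366 (SD, n = 3 each), with a difference of -0.004 (SE 0.12, unadjusted p = 0.975 in limma, exact permutation p = 1), and of -0.009 (SE 0.15) over 4 tumors. Its locus overlaps that of GSG2.

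Across the 26 genes, 11 had both vehicle replicate 3 and WCE replicate 1 above the other 4 tumors, namely ITGA2, ITGA3, ITGA6, ITGA10, ITGAV, ITGB4, ITGB6, ITGB8, LAMA3, LAMA5 and LAMB3, and 1 had both below. For these genes the groups cannot separate, since each group holds 1 of the highest values. LAMB2 and LAMC1 were not among them. The same share over all entries was not computed, so the count cannot be read as particular to integrins and laminins.

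Laminin is tied into the basement membrane by nidogens, perlecan, agrin and collagens. Of 13 genes on a list of these with fibulin-1 and SPARC, 10 were tested; 9 had a higher and 1 a lower mean, and 5 had an unadjusted p under 0.05 in limma, all higher, where 7.10% of all entries had one in either direction. None passed adjustment, where the lowest value was 0.623. The median difference of the list was 0.21. SPARC was known from earlier results of these data, so the list is not independent of them. HSPG2, which encodes perlecan, was 14.5, 20.7 and 26.3 FPKM in vehicle tumors 1 to 3 and 26.2, 59.1 and 40.1 FPKM in WCE tumors 1 to 3, a difference of 0.96 (SE 0.31, unadjusted p = 0.0152 in limma). NID1, which encodes the nidogen that links laminin gamma1 to collagen IV, was 7.82, 15.3 and 15.4 FPKM in vehicle tumors 1 to 3 and 14.6, 26.6 and 24.6 FPKM in WCE tumors 1 to 3, a difference of 0.74 (SE 0.30, unadjusted p = 0.0391 in limma). In both genes WCE replicate 1 lay within the vehicle range and WCE replicates 2 and 3 lay above it. SPARC, a matrix protein that binds collagen, showed the same order with 45.0, 30.0 and 43.1 FPKM in vehicle tumors 1 to 3 and 43.1, 90.8 and 124 FPKM in WCE tumors 1 to 3, a difference of 1.00 (SE 0.36, unadjusted p = 0.0248 in limma). COL4A6 had a difference of 0.27 (SE 0.11, unadjusted p = 0.0478 in limma). COL18A1, named after its values were seen, had 0.61 (SE 0.26, unadjusted p = 0.0483 in limma). It was the 1 gene of the list without overlap, 10% of the 10 tested, against 12.8% of all entries. In replicate order, its vehicle values were 10.1, 18.1 and 22.2 FPKM, and its WCE values were 22.7, 29.7 and 23.2 FPKM. The separation in COL18A1 thus runs between the nearly identical libraries. COL4A1 and COL4A2, the chains of the common collagen IV trimer, had differences of -0.24 (SE 0.22) and 0.01 (SE 0.20). Without the nearly identical libraries, 6 of 10 had an unadjusted p under 0.05 in limma, 5 higher and COL4A1 lower, against 18.4% of all entries. The difference over these 4 tumors was 1.44 (SE 0.25, unadjusted p = 0.0019 in limma) for HSPG2, 1.15 (SE 0.30, unadjusted p = 0.0109 in limma) for NID1 and 1.50 (SE 0.24, unadjusted p = 0.0014 in limma) for SPARC.

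Of 28 integrin adapters and focal adhesion genes, all were tested, 15 had a higher and 13 a lower mean in WCE, and 3 had an unadjusted p under 0.05 in limma, all higher, 10.7% of the list against 7.10% of all entries. None passed adjustment, where the lowest value was 0.623. FLNA, the filamin that ties integrin tails to actin, was 123, 104 and 145 FPKM in vehicle tumors 1 to 3 and 147, 176 and 194 FPKM in WCE tumors 1 to 3, a difference of 0.48 (SE 0.15, unadjusted p = 0.0163 in limma), and of 0.71 (SE 0.13, unadjusted p = 0.0025 in limma) over 4 tumors. ILK, the integrin-linked pseudokinase, differed by 0.34 (SE 0.14, unadjusted p = 0.0418 in limma) and SRC, a tyrosine kinase of focal adhesions, by 0.28 (SE 0.11, unadjusted p = 0.0381 in limma). The median difference of the list was 0.04, beside -0.0063 over all entries. Without the nearly identical libraries 9 of the 28 had an unadjusted p under 0.05 in limma, 8 higher and 1 lower, 32.1% against 18.4% of all entries.

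**Figure D5:**
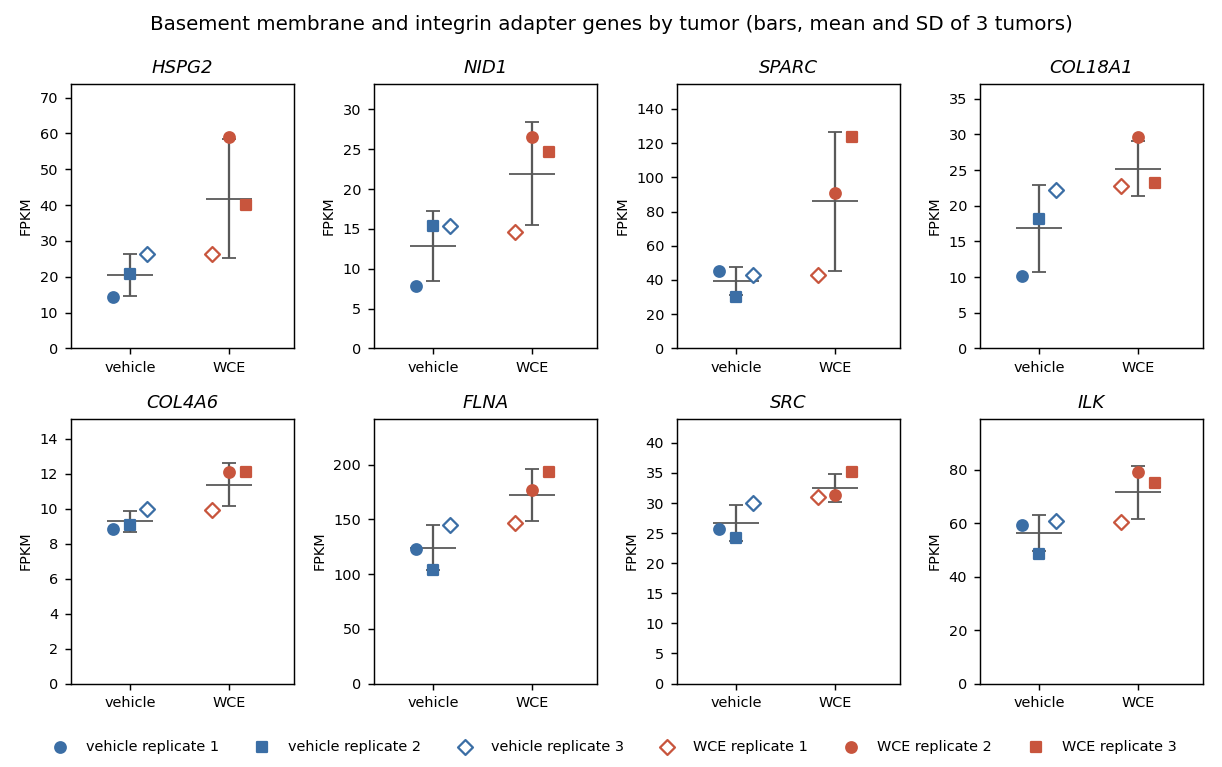
FPKM of 5 basement membrane genes and 3 integrin adapter genes in vehicle and WCE tumors, the genes of the lists with an unadjusted p under 0.05, with the mean and SD of 3 tumors as bars. In HSPG2, NID1 and SPARC the WCE mean is carried by WCE replicates 2 and 3, and the open diamonds lie together.

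Of 14 other integrin ligands, 11 were tested and 1 had an unadjusted p under 0.05 in limma, 9.09% against 7.10% of all entries. None passed adjustment, where the lowest value was 0.623. NPNT, which encodes nephronectin, a ligand of the integrin alpha8beta1, was lower in WCE by a difference of -0.35 (SE 0.14, unadjusted p = 0.0373 in limma). FN1, fibronectin, ranged from 30.3 to 138 FPKM, with the nearly identical libraries highest, and differed by -0.02 (SE 0.62). Without the nearly identical libraries 3 of the 11 had an unadjusted p under 0.05 in limma, 27.3% against 18.4% of all entries, with NPNT and THBS1 lower and FBN1 higher. THBS1, which encodes thrombospondin-1, had a difference of -0.80 (SE 0.37, unadjusted p = 0.0644 in limma) over 6 tumors and -1.21 (SE 0.14, unadjusted p = 0.00031 in limma) over 4. FBN1, which encodes fibrillin-1, had 0.54 (SE 0.25, unadjusted p = 0.0627 in limma) and 0.81 (SE 0.27, unadjusted p = 0.0310 in limma).

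Some markers of cell type also differed between the groups in level. EPCAM and CDH1, the epithelial adhesion genes, were lower in every WCE tumor than in every vehicle tumor, by differences of -0.73 (SE 0.21, unadjusted p = 0.0089 in limma) and -0.47 (SE 0.17, unadjusted p = 0.0253 in limma), neither of which passed adjustment at 0.623. The lowest vehicle value was in EPCAM 185 FPKM and in CDH1 57.8 FPKM, both in vehicle replicate 3. The highest WCE values were 180 and 56.5 FPKM, both in WCE replicate 1. In both genes the separation thus runs between the nearly identical libraries. Over 4 tumors the EPCAM and CDH1 differences were -1.08 (SE 0.14, unadjusted p = 0.00055 in limma) and -0.68 (SE 0.10, unadjusted p = 0.00094 in limma). The keratins of the epithelial list did not follow, and their groups overlapped. KRT8, KRT18 and KRT19 had differences of 0.05 (SE 0.12), 0.10 (SE 0.12) and -0.01 (SE 0.21) over 6 tumors. KDR, an endothelial receptor, was 0.216, 0.247 and 0.529 FPKM in vehicle tumors 1 to 3 and 0.559, 1.59 and 5.12 FPKM in WCE tumors 1 to 3, whereas CDH5, TEK and VWF reached at most 0.0893 FPKM in any tumor. ENG was 2.73, 1.55 and 1.92 FPKM in vehicle tumors 1 to 3 and 1.60, 3.75 and 3.92 FPKM in WCE tumors 1 to 3, with overlapping groups, and PECAM1 overlapped as well. The KDR difference was 1.14 (SE 0.44, unadjusted p = 0.0345 in limma) over 6 tumors and 1.69 (SE 0.41, unadjusted p = 0.0084 in limma) over 4, and that of ENG was 0.38 (SE 0.27) and 0.65 (SE 0.21, unadjusted p = 0.0271 in limma). LUM and PF4, of the fibroblast and platelet lists, were lower, by differences of -0.85 (SE 0.32, unadjusted p = 0.0308 in limma) and -0.70 (SE 0.18, unadjusted p = 0.0055 in limma). The groups overlapped in LUM and not in PF4, which ranged from 0.636 to 2.67 FPKM, and neither passed adjustment at 0.623. The other genes tested on the fibroblast and platelet lists went both ways, and their groups overlapped. PPBP and ACTA2 had differences of 0.26 (SE 0.45) and 0.11 (SE 0.25). COL1A1 and COL3A1 had differences of -0.44 (SE 0.50) and -0.51 (SE 0.51). Of the marker lists, 2 of 5 epithelial, 0 of 1 leukocyte, 1 of 3 endothelial, 1 of 4 fibroblast and mural and 1 of 2 platelet genes tested had an unadjusted p under 0.05 in limma with 6 tumors, against 7.10% of all entries, and groups did not overlap in 12.8% of all entries. Over the other 4 tumors the counts were 2 of 5, 1 of 1, 2 of 3, 1 of 4 and 1 of 2, in the same order of lists, against 18.4% of all entries. The leukocyte gene was CD68, higher in WCE by 0.57 (SE 0.13, unadjusted p = 0.0071 in limma). The part of these shifts in the values of LAMB2, LAMC1 and the basement membrane genes was not tested.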

How the data were processed

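The sample labels give 3 vehicle and 3 WCE tumors of PC-3 cells, each with 1 RNA-seq library. The libraries were stranded and polyA-selected. The authors deposited 1 table of FPKM values per gene entry; the submitters' processing notes name TopHat2 2.0.13, Cufflinks and the builds hg19 and mm10, without a role for each. The loci of the table are on hg19 and its starts, counted from 0, were moved by 1. No read counts were used, so the depth is known only relative to vehicle replicate 3, and no column of values was left out.

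Genes were matched by symbol; 1 gene tested is counted but its own values are not reported here. FPKM values were changed to log2(FPKM + 1), entries with a mean of at least 0.5 FPKM over the 6 tumors were kept (13287 of 24000), and WCE was compared with vehicle by two-sided tests in limma (version 3.58.1, R version 4.3.3), fitting a trend of the variance with the mean. P-values were adjusted over all 13287 entries with a threshold of 0.05. The comparison was tested on simulated data. Two-sided exact permutation tests of the difference in mean log2(FPKM + 1) are given for genes described in full, which are those with an unadjusted p under 0.05, those whose groups do not overlap and the highest of each role group; of the other lists the rule names up to 4 genes with the lowest unadjusted p under 0.05. COL18A1, COL4A1, COL4A2, CD151, FN1, THBS1 and FBN1 fall outside that rule and were named after their values were seen, as were single markers. The integrin and laminin genes, the lists and the fit without the nearly identical libraries were chosen with earlier results of these data known. The labels do not say that the tumors came from separate cultures, so p-values measure only the spread between these tumors. Promoter windows are RefSeq on GRCh38.p14 and were cut where a GENCODE exon begins. Other settings tried were a smaller pseudocount, other filters and scalings, no trend, no moderation, tumor weights, a replicate block and fits that leave out tumors. Python 3.11.15, numpy 2.4.6, pandas 2.3.3 and matplotlib 3.10.9 were used.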

Additional observations from a re-analysis of the deposited data

How the results depend on the processing

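The number of genes with an adjusted p under 0.05 in limma was 0 under all 17 alternatives, and the median difference moved by less than its spread. The number at an unadjusted p under 0.05, 1 with all tumors, was 2 with a pseudocount of 0.1, 3 without a filter, 3 with upper-quartile scaling, 2 with quantile normalization, 0 in an unmoderated comparison (4.46% of all entries), where LAMB2 had p = 0.0502 by a parametric and not an exact test, 9 with tumor weights (4 higher and 5 lower, where 24.1% of all entries had such a p), 4 with the replicate block (7.89%) and 9 without the nearly identical libraries (18.4%). For the pseudocount, filter, upper-quartile and quantile settings the shares of all entries were 7.08%, 4.38%, 7.20% and 7.19%. Leaving out 1 tumor gave 1 to 7, with 5 without vehicle replicate 3 (13.3% of all entries) and 7 without WCE replicate 1 (15.3%). Genes whose groups did not overlap numbered 2, 2 to 7 with 1 tumor left out (7 when WCE replicate 1 was left out, against 37.8% of all entries, 6 for vehicle replicate 3, against 33.0%, and 4 for vehicle replicate 1 or WCE replicate 2, against 20.4% and 17.7%) and 12 without the nearly identical libraries, against 53.5%. The cause of these changes was not tested. LAMB2 was higher in WCE under all alternatives and had an unadjusted p under 0.05 in 16 of 17. Of 25 genes, 15 kept their direction under all of them. Tumor weights turned LAMB3 to -0.081, ITGA2 to -0.014, LAMA4 to 0.059 and LAMC3 to 0.30, upper-quartile scaling turned ITGAE to 0.0037, and LAMC3 was 0.026 with a pseudocount of 0.1 and 0.049 with quantile normalization. With 1 tumor left out, differences crossed 0 for ITGB1 (-0.092 to 0.035), ITGA3 (-0.24 to 0.13), LAMB3 (-0.17 to 0.30), LAMA3 (-0.55 to 0.087), ITGA2 (-0.042 to 0.065), LAMA5 (-0.055 to 0.43), ITGAE (-0.059 to 0.072), LAMA4 (-0.24 to 0.062), ITGA2B (-0.0074 to 0.22) and LAMC3 (-0.19 to 0.28). Tumors share only a number: same-number correlations of deviations were -0.24, 0.16 and -0.09. The low depth of WCE replicate 1 limits the precision of genes near 1 FPKM, and with 2 pairs of tumors left no permutation test can pass 0.05.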
